A study of Arabidopsis thaliana with 35 samples.

Results

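A set of 7 Arabidopsis thaliana genes of the sperm membrane and of gamete fusion was followed, chosen by their gene identifiers: HAP2 (AT4G11720), GEX1 (AT5G55490), GEX2 (AT5G49150), DMP8 (AT1G09157), DMP9 (AT5G39650), TET11 (AT1G18520) and TET12 (AT5G23030). Of these 7 genes, 6 have counts among the 66429 features of the deposited tables, and GEX2 was not analysed here. All 6 passed the filter on low counts that left 12106 features for testing. The libraries are poly(A) RNA-seq of mature pollen of ecotype Col0, with 5 libraries for each of 7 genotypes: wild-type, the single mutants acd21, acd15 and sln, the double mutants acd15 acd21 and mbd5 mbd6, and the triple mutant acd15 acd21 sln. The labels name no alleles. In every genotype, libraries 1 and 2 belong to batch 1 and libraries 3, 4 and 5 to batch 2, which gives 14 and 21 libraries. MBD5 and MBD6 bind methylated DNA, SLN is a J-domain protein and ACD15 and ACD21 are alpha-crystallin domain proteins, and the study's title ties them to the silencing of genes and transposable elements. Separate plantings for the 5 libraries are not stated in the labels, and the p-values therefore reflect only how these libraries scatter, which may be technical.

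In flowering plants the pollen tube carries a pair of sperm cells inside the vegetative cell, and the sperm fuse with the egg cell and the central cell. HAP2, also called GCS1, is the sperm membrane fusogen that merges the gamete membranes. GEX2 is a sperm surface protein for attachment to the female gametes. DMP8 and DMP9 are related sperm membrane proteins that help fusion, and their loss gives seeds with haploid maternal embryos. The egg cell secretes EC1 peptides, which activate the sperm and bring HAP2 to the surface. TET11 and TET12 are tetraspanins, proteins that organise membrane domains, of the sperm plasma membrane. GEX1 is a membrane protein of the gamete nuclear envelope that acts in the fusion of nuclei. The sperm-lineage MYB factor DUO1 activates many sperm genes, and RefSeq names DMP9 as DAU2 for that reason (DUO1-activated unknown).

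Positions are those of the RefSeq assembly TAIR10.1. HAP2 is at chr4:7063255-7066878 and TET11 at chr1:6374906-6376333, both on the plus strand. DMP8 is a gene of 1 exon at chr1:2951635-2952490 on the minus strand, and DMP9 a gene of 1 exon at chr5:15875125-15876116 on the plus strand. TET12 is at chr5:7726702-7728369 on the plus strand and GEX1 at chr5:22478712-22481937 on the minus strand. GEX2 is at chr5:19924354-19929256 on the plus strand. The noncoding RNA gene AT5G49152 at chr5:19924322-19929377 on the same strand shares 3264 exon bases with it, 96.7% of GEX2's exon bases, so its counts are given separately and were not taken as those of GEX2.

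The coding sequences of DMP8 and DMP9, 732 and 735 bases long, were identical at 89.5% of 732 aligned bases. Their most alike 150 bases are shown because reads of such near copies can be hard to tell apart. The stretches, from RefSeq TAIR10.1, are chr1:2952093-2952242 (minus strand) and chr5:15875422-15875571 (plus strand), both coding exon, and capitals mark the 6 bases that differ.
DMP8 coding: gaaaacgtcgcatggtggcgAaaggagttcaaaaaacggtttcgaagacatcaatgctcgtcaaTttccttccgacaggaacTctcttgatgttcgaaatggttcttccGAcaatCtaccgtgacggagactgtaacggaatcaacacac
DMP9 coding: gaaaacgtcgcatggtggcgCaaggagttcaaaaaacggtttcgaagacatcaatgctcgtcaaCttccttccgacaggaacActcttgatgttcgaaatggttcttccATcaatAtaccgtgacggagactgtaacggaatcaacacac
The longest run that the coding sequences of the pair share was 47 bases, and none of the 50-base windows of any of the 7 genes' exons occurred elsewhere in the genome. TET11 and TET12 were identical at 56.8% of aligned coding bases, with a longest shared run of 10 bases.

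The 250 bases before the transcript start are shown for HAP2, for the DMP pair, whose levels lie far apart, and for the tetraspanin pair, which fell together in a mutant. Capitals mark AACCG on either strand (CGGTT on the other), the core of the site that DUO1 binds. In the order shown, the windows are chr4:7063005-7063254 (plus strand), chr1:2952491-2952740 (minus strand), chr5:15874875-15875124 (plus strand), chr1:6374656-6374905 (plus strand) and chr5:7726452-7726701 (plus strand), from RefSeq TAIR10.1.
HAP2 promoter: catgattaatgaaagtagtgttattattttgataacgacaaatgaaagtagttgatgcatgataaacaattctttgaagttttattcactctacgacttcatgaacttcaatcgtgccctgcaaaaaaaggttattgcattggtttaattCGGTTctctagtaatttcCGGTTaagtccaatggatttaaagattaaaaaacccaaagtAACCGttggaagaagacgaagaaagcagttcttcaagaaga
DMP8 promoter: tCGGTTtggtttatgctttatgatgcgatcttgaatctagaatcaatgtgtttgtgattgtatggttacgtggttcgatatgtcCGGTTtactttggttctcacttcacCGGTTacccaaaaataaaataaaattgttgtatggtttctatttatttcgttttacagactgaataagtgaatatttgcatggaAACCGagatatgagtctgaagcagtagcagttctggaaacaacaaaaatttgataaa
DMP9 promoter: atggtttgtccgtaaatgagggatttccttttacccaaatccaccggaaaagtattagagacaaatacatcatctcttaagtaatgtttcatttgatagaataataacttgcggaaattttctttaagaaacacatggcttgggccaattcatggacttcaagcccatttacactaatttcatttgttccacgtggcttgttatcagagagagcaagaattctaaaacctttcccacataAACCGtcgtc
TET11 promoter: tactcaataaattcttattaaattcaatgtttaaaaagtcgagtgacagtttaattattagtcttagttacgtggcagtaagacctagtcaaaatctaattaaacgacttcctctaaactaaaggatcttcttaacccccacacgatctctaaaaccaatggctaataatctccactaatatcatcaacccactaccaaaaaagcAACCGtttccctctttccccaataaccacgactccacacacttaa
TET12 promoter: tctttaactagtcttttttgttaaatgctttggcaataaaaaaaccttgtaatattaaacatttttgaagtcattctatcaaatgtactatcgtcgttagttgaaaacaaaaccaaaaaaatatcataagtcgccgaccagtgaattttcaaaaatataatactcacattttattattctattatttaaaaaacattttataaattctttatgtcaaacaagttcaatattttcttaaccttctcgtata
AACCG stood in this window of 6 of the 7 genes (85.7%), against 23.2% of the 27443 windows of RefSeq protein-coding genes and 27.7% of the 9848 windows of tested protein-coding genes. There were 4 matches in DMP8, 3 each in HAP2, GEX1 and GEX2, and 1 each in DMP9 and TET11, and TET12 had none. Of 8 sperm marker genes 7 had a match (87.5%), and of 8 vegetative cell marker genes 2 (25.0%). DMP9 is named as DUO1-activated and the sperm markers DAZ1 and DAZ2 act downstream of DUO1, so these shares are no independent test. A match is a description of the letters and does not show binding, and no match says only that these letters are not in this window.

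The labelled tissue was checked with marker genes. Total counts per library were 9267958 to 22208090 (median 13847738). All 8 sperm markers, such as DUO1, the histone gene HTR10 and DAZ3, and all 8 vegetative cell markers, such as the pectin methylesterase VGD1 and the receptor kinase ANX1, passed the filter. Their summed levels were 1601 to 2253 CPM and 14872 to 27122 CPM per library, where CPM is the count per 1000000 counts of the TMM-scaled library size. The sperm sum leans on a few genes: in wild-type DAZ3 and PCR11 averaged 707 and 624 CPM of a mean sum of 1935, and DUO1 7.20 CPM. The vegetative sum does too: VGD1, BUPS1 and LAT52-like averaged 10569, 4560 and 3054 CPM of a wild-type mean sum of 22417. The 5 egg cell EC1 genes had 0 to 4 counts in any library. Of 4 tapetum markers A9 and ATA1 had 0 counts in all libraries, A6 had at most 1 and QRT3 at most 6 (median 2). The summed level of 5 leaf markers was 19.3 to 45.9 CPM. One library stood apart: sln library 5 had the most counts and the lowest summed level of both sperm (1601 CPM) and vegetative (14872 CPM) markers of all 35. In bulk pollen, fewer sperm cells and less RNA per sperm cell cannot be told apart.

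In wild-type pollen the 6 genes differed widely in level, from GEX1 among the upper ranks of tested genes to DMP8 below the middle. Per kilobase of exon, GEX1 stood at 161 ± 6.92 CPM (SD, n = 5) and ranked 610 of 9849 tested protein-coding genes. DMP9 followed at 73.2 ± 6.27 CPM per kilobase (rank 993), and HAP2 lay at 13.3 ± 1.49 (rank 2768). The tetraspanins TET11 and TET12 were at 10.3 ± 1.75 and 4.99 ± 0.76 CPM per kilobase (ranks 3138 and 4342), and DMP8 was lowest at 2.81 ± 0.64 (rank 5367). The wild-type ranges of HAP2 and TET11 overlapped on this scale, although HAP2 was above TET11 within every wild-type library. Those of TET12 and DMP8 met at their edges.

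**Figure D1:**
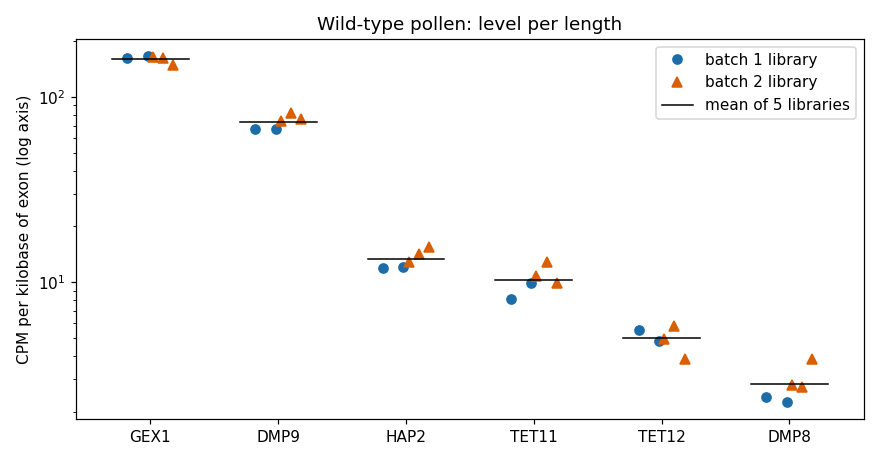
Level of the 6 genes in the 5 wild-type libraries, in CPM per kilobase of exon on a log axis, with circles for batch 1, triangles for batch 2 and a line at the mean. GEX1 (mean 161) and DMP9 (73.2) lie well above HAP2, TET11, TET12 and DMP8 (13.3 to 2.81).

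The DMP pair, alike in coding sequence, was unequal in level in every library. The ratio of DMP9 to DMP8 per kilobase was 19.4 to 35.8 over the 35 libraries (median 26.4). It averaged 26.8 ± 4.24 (SD, n = 5) in wild-type and 23.4 ± 2.40 in sln, the lowest genotype mean, with overlapping ranges. The tetraspanin ratio, TET11 to TET12 per kilobase, was 1.46 to 2.74 (median 2.2), so that TET11 was above TET12 in all 35 libraries. GEX1 exceeded HAP2 9.51-fold to 13.7-fold per kilobase.

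The count behind each value sets its precision. DMP8 had 17 to 112 counts per library, and the SD of its log2 level around the genotype and batch means (0.23) was close to that expected from counting alone (0.24). TET12 had 45 to 256 counts, TET11 77 to 311, HAP2 216 to 791, DMP9 706 to 2569 and GEX1 2922 to 7690. GEX1 varied by 0.08 on the log2 scale where counting alone gives 0.02, and DMP9 by 0.05 against 0.04, the least of the 6 genes.

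**Figure D2:**
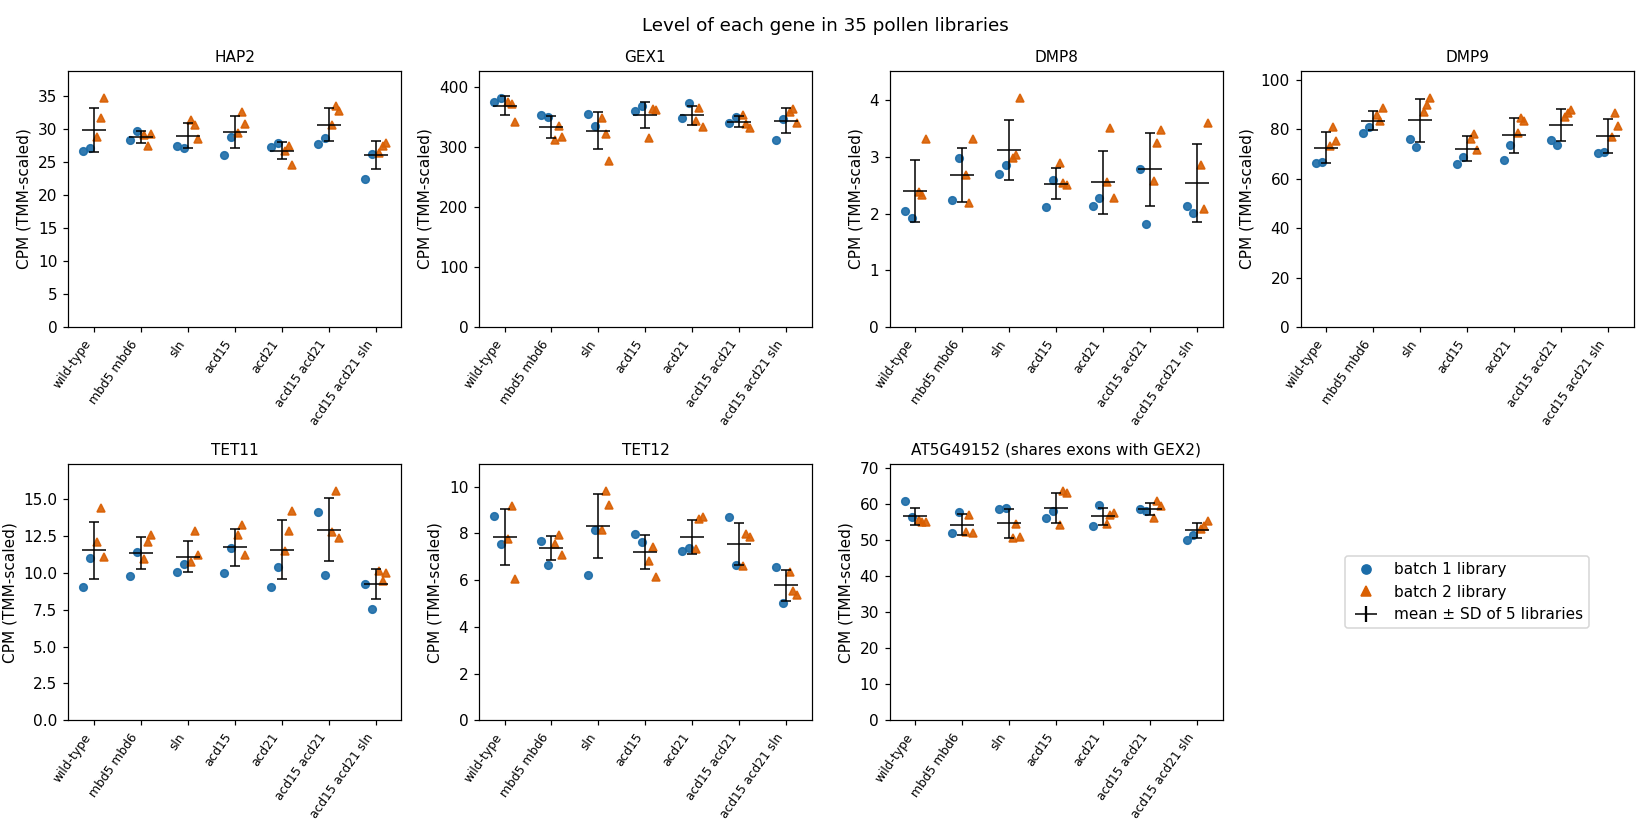
CPM of the 6 genes and of AT5G49152 in all 35 libraries by genotype, with circles for batch 1, triangles for batch 2 and bars for the mean ± SD of 5 libraries. DMP9 is higher in batch 2 in every genotype, and within each batch its libraries of mbd5 mbd6, sln and acd15 acd21 lie above those of wild-type.

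Each mutant was set against wild-type, with batch as a term, to ask whether loss of the silencing proteins changed transcripts of the fusion machinery. All 6 comparisons use the same wild-type libraries. The changes were small: every log2 change that was called lay between -0.44 and 0.20. DMP9 rose in 3 mutants, GEX1 fell in sln, and TET12, TET11 and HAP2 fell in acd15 acd21 sln. The median log2 change over the 6 genes was -0.15 in the triple mutant, 0.11 in acd15 acd21 and between -0.04 and 0.02 in the other 4 mutants, beside medians over all tested features of at most 0.01 in size. Asked once over all 7 genotypes, 4 of the 6 genes differed (DMP9, TET11, TET12 and HAP2; edgeR's quasi-likelihood test, adjusted p = 4.22e-05, 0.0156, 0.0214 and 0.0375), where 10.4% of all tested features did. GEX1 and DMP8 did not pass (adjusted p = 0.18 and 0.36). Leaving out 1 library at a time ended the overall call of DMP9 in none of 35 fits. It ended that of TET11 in 2 fits (without acd15 acd21 library 4 or triple mutant library 2; adjusted p up to 0.063) and of TET12 in 4 (sln 5, triple mutant 2, 4 or 5; up to 0.0982), and TET12 was also lost with the percentage of no-feature reads as a term (0.0577). For HAP2 it did so in 9 (wild-type 4, acd21 3 to 5, acd15 acd21 4 or 5, triple mutant 1, 3 or 4; up to 0.0815).

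DMP9, a fusion facilitator of the sperm membrane, gave the steadiest result. In the wild-type libraries 1 to 5 it stood at 66.2, 66.8, 73.4, 81.1 and 75.4 CPM. In mbd5 mbd6 it stood at 78.6, 80.9, 85.8, 83.3 and 88.5 CPM, and in sln at 75.9, 72.9, 86.9, 89.7 and 92.6 CPM. Both mutants lay above every wild-type library of the same batch, in batch 1 and in batch 2, and overlapped wild-type only where the batches are mixed. In acd15 acd21 the values were 75.8, 73.7, 84.9, 86.4 and 87.7 CPM, again above wild-type within each batch. The share of all tested features that separate from wild-type within a batch in this way was not computed. With 2 libraries per genotype in batch 1, such separation is given here and below as a description only.

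The log2 change of DMP9 was 0.20 ± 0.04 (SE) in mbd5 mbd6 (edgeR's quasi-likelihood test, adjusted p = 6.45e-04, n = 5 per genotype), and the approximate 95% interval of its level over that of wild-type was 1.09 to 1.22. It was 0.20 ± 0.04 in sln (edgeR, adjusted p = 5.41e-04) and 0.17 ± 0.04 in acd15 acd21 (edgeR, adjusted p = 0.00546). DMP9 was the only one of the 6 genes called in mbd5 mbd6, where 5.48% of tested features were called, and in acd15 acd21, where 4.97% were. In sln 2 of 6 were called, against 6.31% of all features. Leaving out any 1 of the 35 libraries ended none of these 3 calls, and without sln library 5 the change in sln was 0.19 (edgeR, adjusted p = 0.00417). Without the batch term all 3 were lost (adjusted p = 0.110, 0.0802 and 0.225). Within batch 1 the 3 log2 changes were 0.26, 0.17 and 0.17 and within batch 2 they were 0.16, 0.22 and 0.17, of which mbd5 mbd6 in batch 1 (adjusted p = 0.0268) and sln in batch 2 (adjusted p = 0.0221) were called by edgeR. The median log2 change over the 8 sperm markers was 0.09 in mbd5 mbd6, 0.03 in sln and 0.08 in acd15 acd21. Their summed level was 1928 to 2165, 1601 to 1990 and 1963 to 2096 CPM, against 1859 to 2030 CPM in wild-type. Of the 8 vegetative markers, the receptor kinase gene BUPS1 rose in mbd5 mbd6 (0.42 ± 0.07; edgeR, adjusted p = 2.25e-05), the other 7 did not pass there, and none passed in sln or acd15 acd21. The part of these markers in the DMP9 result was not tested.

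DMP9 was not called against wild-type in the other 3 mutants. In acd15 it stood at 66.0, 68.7, 76.2, 78.0 and 71.7 CPM, overlapping wild-type in both batches, with a log2 change of -0.01 ± 0.04 and an interval of -0.09 to 0.07. It was lower in acd15 than in mbd5 mbd6 (log2 change -0.21 ± 0.04; edgeR, adjusted p = 9.05e-04) and than in sln (-0.21 ± 0.04; edgeR, adjusted p = 3.91e-04), and higher in acd15 acd21 than in acd15 (0.18 ± 0.04; edgeR, adjusted p = 0.0361). The last of these calls was lost in 23 of 35 fits that each left out 1 library, every acd15 acd21 library among them (adjusted p up to 0.164). It was also lost with other filters on low counts (0.0522 with a stricter one, 0.290 with none), in a fit of the compared genotypes alone (0.128) and with the no-feature percentage as a term (0.0602). Without the batch term all 3 calls between mutants were lost (edgeR, adjusted p = 0.158, 0.0913 and 0.792). Within batch 1 none of the 3 was called, and within batch 2 only that against sln was (edgeR, adjusted p = 0.0141). The 3 pairs called 1.85%, 3.46% and 0.24% of all features. In acd21 the level was 67.5, 73.6, 78.5, 84.7 and 83.4 CPM and in acd15 acd21 sln 70.6, 70.9, 76.8, 86.7 and 81.3 CPM, both above wild-type in batch 1 and overlapping it in batch 2. Their log2 changes, 0.09 ± 0.04 in each, did not pass (edgeR, adjusted p = 0.30 and 0.27).

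Its near copy DMP8 was called in no mutant. In wild-type it had 2.05, 1.93, 2.39, 2.33 and 3.31 CPM and in sln 2.69, 2.85, 2.98, 3.04 and 4.04 CPM. The sln libraries were above wild-type in batch 1 and overlapped it in batch 2, and the same held for mbd5 mbd6, acd15 and acd21. The log2 change of 0.41 ± 0.15 had an interval of 0.12 to 0.70 and did not pass (edgeR, adjusted p = 0.097). Without wild-type library 5 it was 0.53 and called (edgeR, adjusted p = 0.0394), and without sln library 5 it was 0.29 and not called (0.436). At this depth a DMP8 change of the size of the DMP9 change was not detectable, and the intervals of DMP8 in mbd5 mbd6 (-0.17 to 0.48) and acd15 acd21 (-0.08 to 0.54) included it.

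The tetraspanins were lowest in the triple mutant. Wild-type libraries 1 to 5 held TET12 at 8.73, 7.55, 7.74, 9.15 and 6.06 CPM. Those of acd15 acd21 sln held it at 6.54, 5.03, 6.37, 5.53 and 5.38 CPM. The groups separated in batch 1, and in batch 2 they overlapped through wild-type library 5. The log2 change was -0.44 ± 0.12 (edgeR, adjusted p = 0.0117), a level 0.74 times that of wild-type with an interval of 0.63 to 0.86. Against sln, the genotype with the highest TET12 mean (8.31 ± 1.36 CPM, SD, n = 5), the triple mutant was lower by a log2 change of -0.53 ± 0.11 (edgeR, adjusted p = 0.0022), where 4.73% of features differed.

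TET11 had 9.05, 11.0, 12.1, 14.4 and 11.1 CPM in the wild-type libraries. Its triple mutant values were 9.26, 7.55, 10.1, 9.46 and 9.96 CPM. In batch 2 all triple mutant libraries were below wild-type, and in batch 1 they overlapped. The log2 change was -0.31 ± 0.10 (edgeR, adjusted p = 0.0447). TET11 was highest in acd15 acd21, at 12.9 ± 2.12 CPM (SD, n = 5), and the triple mutant lay below that double mutant by a log2 change of -0.48 ± 0.10 (edgeR, adjusted p = 0.00101). It also lay below acd15 (-0.34 ± 0.10; edgeR, adjusted p = 0.0450), a call lost without mbd5 mbd6 library 4, acd15 libraries 2, 3 or 4 or triple mutant libraries 2 to 5 (adjusted p up to 0.129). That call was also lost with DESeq2 size factors (0.0505), in a fit of the compared genotypes alone (0.0572) and with the no-feature percentage as a term (0.0753). These pairs called 2.21% and 1.97% of features.

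HAP2, the fusogen, stood at 26.8, 27.2, 28.9, 31.7 and 34.7 CPM in the wild-type libraries. The triple mutant libraries 1 to 5 stood at 22.4, 26.2, 26.4, 27.5 and 27.9 CPM. The triple mutant was below wild-type within each batch, and the groups overlapped across batches. The log2 change was -0.20 ± 0.06 (edgeR, adjusted p = 0.0377), a level 0.87 times that of wild-type with an interval of 0.80 to 0.95. Against acd15 acd21, whose HAP2 mean was the highest (30.7 ± 2.50 CPM, SD, n = 5), it was -0.24 ± 0.06 (edgeR, adjusted p = 0.0171), a call lost without library 4 or 5 of acd15 acd21 or library 1 of the triple mutant (adjusted p up to 0.0774).

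In the triple mutant 3 of the 6 genes were thus called, all lower, where 2.39% of all tested features were called lower and 6.21% in either direction. Leaving out 1 library ended the call of TET12 in 4 of 35 fits (wild-type 1 or 4, triple mutant 2 or 5; adjusted p up to 0.0764) and of HAP2 in 4 (wild-type 4 or 5, triple mutant 1 or 3; up to 0.160). It ended that of TET11 in 16 (wild-type 2 to 4, triple mutant 2 to 5 and 9 libraries of other mutants; up to 0.237). Within batch 1 their log2 changes were -0.49, -0.24 and -0.16 for TET12, TET11 and HAP2, and within batch 2 -0.42, -0.35 and -0.22, none called within either batch. Reads in no feature made up 0.217 to 0.887% of the triple mutant libraries and 0.529 to 0.944% of the wild-type ones, and with this percentage as a further term none of the 3 was called. Under that term the log2 changes were -0.39 ± 0.13 for TET12, -0.29 ± 0.11 for TET11 and -0.22 ± 0.07 for HAP2 (edgeR, adjusted p = 0.078, 0.151 and 0.059), each within 1 SE of the value without it and with a larger SE. None of 8 sperm markers was called lower there: HTR10 rose (0.19 ± 0.05, edgeR, adjusted p = 0.0223) and the other 7 did not pass. The summed level of the 8, which leans on DAZ3 and PCR11, was 1782 to 2253 CPM against 1859 to 2030 in wild-type. In batch 1 it was 1782 and 1862 CPM in the triple mutant, below 1948 and 2030 in wild-type, and in batch 2 the groups overlapped. The part of these markers in the fall of the 3 genes was not tested. Of 5 leaf markers only RBCS3B was called, and it fell (-0.53 ± 0.08; edgeR, adjusted p = 1.35e-06). The median log2 change over the 5 was -0.06.

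GEX1, which acts in nuclear fusion, was highest in wild-type. Its levels were 375, 382, 376, 372 and 341 CPM there, and 355, 336, 349, 321 and 277 CPM in sln. In batch 1 sln lay below wild-type, as did every other mutant against the same wild-type libraries. In batch 2 sln library 3 overlapped wild-type library 5. The log2 change was -0.17 ± 0.05 (edgeR, adjusted p = 0.0325), a level 0.89 times that of wild-type. Without sln library 5, which stood apart on the marker sums, it was -0.12 and not called (edgeR, adjusted p = 0.225). The call was also lost without any 1 of wild-type 1 to 4 or of sln 2 and 4 (adjusted p = 0.0529 or more). In mbd5 mbd6 the change of -0.15 ± 0.05 did not pass (edgeR, adjusted p = 0.0961). It was called at the same size without sln library 5 (edgeR, adjusted p = 0.0414). All 5 mbd5 mbd6 libraries (353, 350, 312, 336 and 316 CPM) lay below every wild-type library of their batch. In the other 4 mutants the log2 values of GEX1 were -0.11 to -0.06, not called.

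In sln the sperm markers DAZ1 and DAZ2, zinc finger regulators downstream of DUO1, rose (log2 changes 0.60 ± 0.12 and 0.56 ± 0.10; edgeR, adjusted p = 3.46e-04 and 1.06e-04), and the other 6 of 8 did not pass. The median over the 8 was 0.03, beside 0.01 over all tested features. None of 8 vegetative markers passed in sln, with a median of -0.12, and their summed level was 14872 to 23860 CPM against 19901 to 24856 CPM in wild-type. The part of either marker list in the GEX1 result was not tested.

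**Figure D3:**
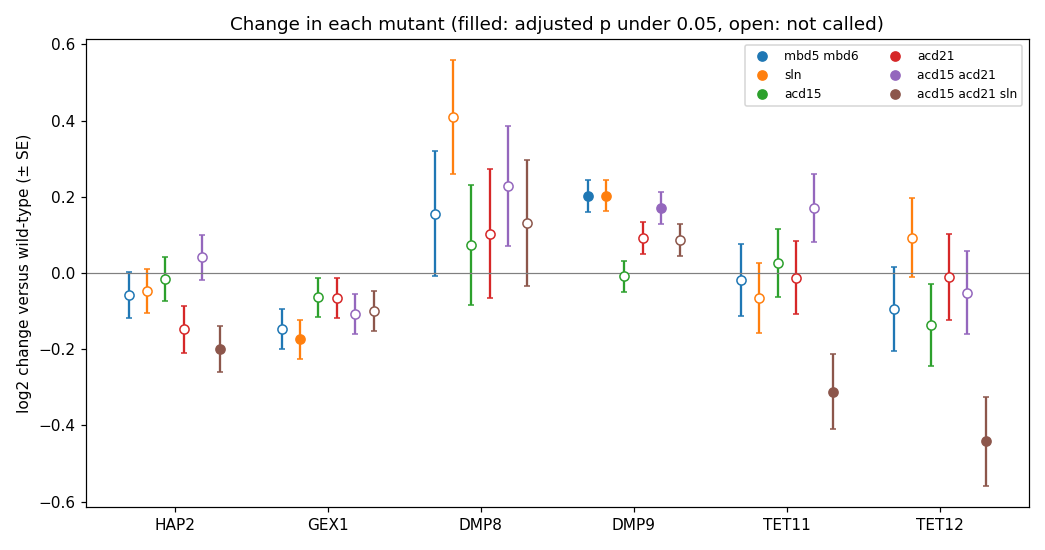
Log2 change of each gene in each mutant against wild-type, with bars for the standard error, filled where the adjusted p was under 0.05 and open otherwise. The filled points are DMP9 in mbd5 mbd6, sln and acd15 acd21 (0.17 to 0.20), GEX1 in sln (-0.17) and HAP2, TET11 and TET12 in acd15 acd21 sln (-0.20, -0.31 and -0.44).

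In the single mutants acd15 and acd21 none of the 6 genes was called by edgeR, where 4.57% and 4.53% of features were. At an unadjusted p under 0.05 there were 0 in acd15 and 2 in acd21 (HAP2 and DMP9), and DESeq2 called 0 in both. HAP2 in acd21 had 27.3, 28.0, 26.6, 27.5 and 24.7 CPM, narrowly above wild-type in batch 1 and below it in batch 2. Its log2 change of -0.15 ± 0.06 did not pass (edgeR, adjusted p = 0.22). Within batch 2 alone the change was -0.28 and called (edgeR, adjusted p = 0.0438), and within batch 1 it was 0.03 (adjusted p = 0.964).

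The genotypes were ordered by mean CPM for each gene, and none of the 36 neighbouring pairs in these orders was called by edgeR (smallest adjusted p = 0.125, 3 at an unadjusted p under 0.05). Over all features, the pairs of mutants not given above called 3.34% (sln and mbd5 mbd6), 1.35% (acd21 and mbd5 mbd6), 1.62% (acd15 acd21 and mbd5 mbd6), 2.22% (triple mutant and mbd5 mbd6), 2.52% (acd21 and sln), 3.14% (acd15 acd21 and sln), 0.281% (acd21 and acd15), 0.273% (acd15 acd21 and acd21) and 1.58% (triple mutant and acd21), and none of the 6 genes was called in them. DMP9 ran from sln (83.6 ± 8.69 CPM, SD, n = 5) over mbd5 mbd6 (83.4 ± 3.90), acd15 acd21 (81.7 ± 6.49), acd21 (77.5 ± 7.10), acd15 acd21 sln (77.3 ± 6.88) and wild-type (72.6 ± 6.22) to acd15 (72.1 ± 5.01). HAP2 ran from acd15 acd21 (30.7 ± 2.50) over wild-type (29.9 ± 3.36), acd15 (29.6 ± 2.42), sln (29.0 ± 1.89), mbd5 mbd6 (28.8 ± 0.90) and acd21 (26.8 ± 1.28) to acd15 acd21 sln (26.1 ± 2.17). Wild-type was highest for GEX1, lowest for DMP8 and next to lowest for DMP9. GEX1 ran from wild-type (369 ± 15.9) over acd15 (353 ± 21.9), acd21 (353 ± 15.9), acd15 acd21 sln (344 ± 20.3), acd15 acd21 (343 ± 8.97) and mbd5 mbd6 (333 ± 19.0) to sln (328 ± 31.2). TET11 spanned 12.9 ± 2.12 in acd15 acd21 to 9.26 ± 1.02 in acd15 acd21 sln, with the other 5 genotypes at 11.1 to 11.7. TET12 spanned 8.31 ± 1.36 in sln to 5.77 ± 0.65 in acd15 acd21 sln, with the others at 7.19 to 7.85, and DMP8 spanned 3.12 ± 0.53 in sln to 2.40 ± 0.54 in wild-type.

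The batches also differed. DMP9, TET11, DMP8 and HAP2 were higher in batch 2, by log2 changes of 0.20 ± 0.02, 0.24 ± 0.05, 0.33 ± 0.09 and 0.12 ± 0.03 (edgeR's quasi-likelihood test, adjusted p = 2.44e-07, 0.00133, 0.0067 and 0.00912). These are 4 of 6 genes higher, where 8.58% of all tested features were higher and 17.6% were called in either direction. DMP9 was 66.0 to 80.9 CPM in the 14 libraries of batch 1 (median 71.9) and 71.7 to 92.6 CPM in the 21 of batch 2 (median 83.4), and its mean was higher in batch 2 in 7 of 7 genotypes. The same held for DMP8 and TET11 in 7 of 7 genotypes and for HAP2 in 5 of 7. GEX1 (-0.05 ± 0.03) and TET12 (0.04 ± 0.06) did not pass. Leaving out any 1 library ended none of the 4 calls, and with the percentage of no-feature reads as a further term DMP8 was not called (adjusted p = 0.0804).

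Markers of both pollen cell types also moved between the batches. Of the 8 sperm markers, DUO1 (0.20 ± 0.06), DAZ1 (0.40 ± 0.07) and DAZ2 (0.40 ± 0.06) were higher in batch 2 and 5 did not pass. Of the 8 vegetative markers, VGD1 (-0.26 ± 0.06), ANX1 (-0.20 ± 0.03), ANX2, BUPS1 and BUPS2 were lower and 3 did not pass. The summed sperm markers stood at 1957 ± 90.6 CPM (SD, n = 14) in batch 1 and 1955 ± 153 CPM (n = 21) in batch 2, and the summed vegetative markers at 23897 ± 1508 and 20964 ± 2705 CPM. Their part in the shift of the 4 genes was not tested. A genotype by batch interaction was called for none of the 6 genes by edgeR, with 0 at an unadjusted p under 0.05, for 0 by DESeq2 and for 0% of all tested features.

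**Figure D4:**
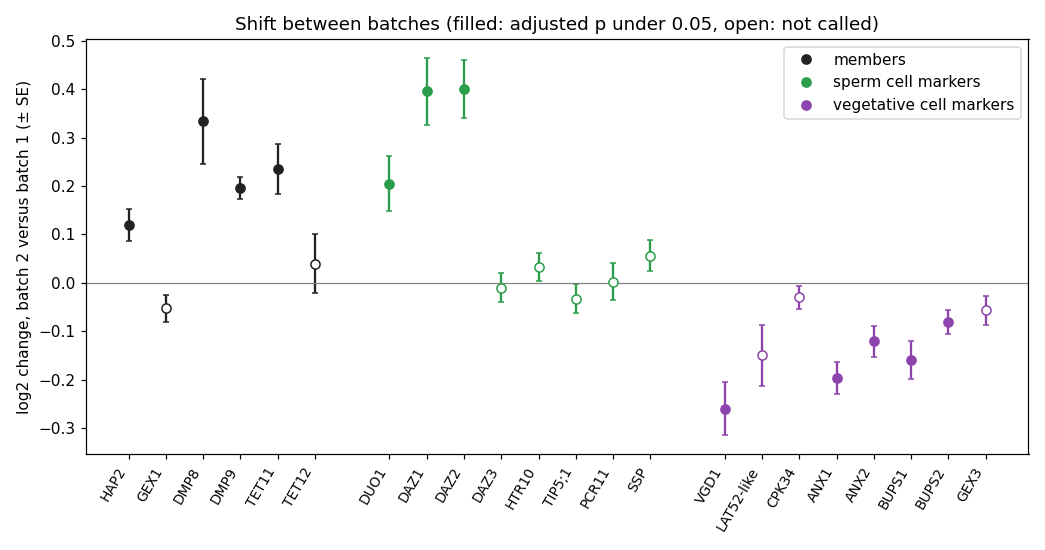
Log2 change of batch 2 against batch 1 for the 6 genes, 8 sperm markers and 8 vegetative markers, with bars for the standard error, filled where the adjusted p was under 0.05. DMP8, DMP9, TET11 and HAP2 (0.12 to 0.33) and DUO1, DAZ1 and DAZ2 (0.20 to 0.40) lie above 0, and 5 vegetative markers lie below it.

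Most relatives of the DMP and tetraspanin genes did not pass the filter on low counts. Of the 15 other tetraspanins 2 passed the filter, TET13 at 90.6 ± 6.95 CPM (SD, n = 5 wild-type libraries) and TET7 at 7.12 ± 1.1 CPM, and neither was called in any mutant by edgeR. The other 13 had at most 14 counts in any library, and TET5 and TET6 had 0 in all. Of the 8 other DMP genes DMP7 alone passed, at 4 to 17 counts per library, and was not called. Of 8 genes of nuclear fusion, the step after membrane fusion, 7 passed the filter: the chaperone partner ERDJ3B rose in mbd5 mbd6 (0.38 ± 0.07; edgeR, adjusted p = 9.38e-05) and the chaperone BIP2 in sln (0.35 ± 0.11; edgeR, adjusted p = 0.0427). No gene of that list was called in the other 4 mutants.

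AT5G49152, the noncoding gene over GEX2, had 439 to 1413 counts. Its mean level was 52.8 ± 2.05 CPM (SD, n = 5) in acd15 acd21 sln, the lowest, and 59.1 ± 4.19 CPM in acd15, the highest, with 56.7 ± 2.42 CPM in wild-type. It was called in no mutant against wild-type by edgeR, and the test over all 7 genotypes did not pass (adjusted p = 0.12). Whether its reads came from GEX2 transcripts was not tested.

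After the mean of each genotype and batch was taken out, the 15 pairs of the 6 genes had Pearson's r of log2 CPM from -0.42 to 0.48 (median 0.23, n = 35 libraries), given as a description of libraries that share depth and scaling. On the same scale GEX1 had a positive r with 8 of 8 vegetative markers (0.32 to 0.57, median 0.47). Its r was positive with 5 of 8 sperm markers (-0.31 to 0.70, median 0.22), and that with the sperm marker DAZ3 (0.64) exceeded every vegetative one. The marker lists were not separate on this scale, as DAZ3 and the vegetative marker VGD1 had an r of 0.89. The other 5 genes had median r with the vegetative markers from -0.39 (DMP8) to 0.04 (HAP2). The feature most like the mean of the 6 genes was AT3G03130 (r = 0.74, Spearman's rho = 0.75), followed by the peptide transporter gene PTR5 (0.70, rho 0.69), AT5G40640 (0.70, rho 0.70), AT5G01120 (0.68, rho 0.66) and AT4G19410 (0.67, rho 0.70). For single genes the most alike were EIN3 for GEX1 (0.89, rho 0.79), AT4G35370 for HAP2 (0.75, rho 0.72), AT5TE31130 for DMP9 (0.71, rho 0.66), AT3G62695 for DMP8 (0.70, rho 0.67), AT5G54750 for TET12 (0.68, rho 0.68) and AT3G02750 for TET11 (0.67, rho 0.62). These features were the highest of all tested ones, so their r carries no test.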

How the data were processed

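Poly(A) RNA of mature pollen was sequenced in 35 libraries, with a TruSeq Stranded mRNA protocol per the labels' protocols. The authors deposited whole-number read counts per feature, 1 table per library, which were used unchanged. The submitters' processing notes name HTSeq, STAR, Trim Galore and deepTools, and the build TAIR10. No source used here gives versions or the strand setting of the counting, so reads of overlapping or antisense genes may be mixed. Reads in no feature, 0.217 to 0.999%, stayed out of library sizes. Of 70 pairs of libraries within a genotype none was identical.

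All 35 libraries entered 1 fit with terms for genotype and batch in edgeR 4.0.16 under R 4.3.3 (quasi-likelihood test, robust dispersions, TMM scaling; filterByExpr with a minimum count of 10 and total of 15). A call is an adjusted p under 0.05 (Benjamini-Hochberg, all 12106 tested features). Errors are SE of log2 changes or SD of CPM over libraries, and 95% intervals are approximate, from the SE. The procedure was tested on simulated data for sln against wild-type only. No batch shift was simulated, so that test does not cover calls that need the batch term. DESeq2 1.42.0, other scalings, filters, terms and samples were alternatives. Coordinates and sequences came from RefSeq TAIR10.1, which gave exon lengths. The 7 genes and the gene lists were chosen with earlier results of these data known. Genes were named by membership of these lists or as the most correlated features.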

Additional observations from a re-analysis of the deposited data

Results flagged for a closer look

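Among 42 groups of 5 libraries (6 genes in 7 genotypes), 3 held a library far from the others, by a gap to the nearest of them above 0.71 of the group's range. Chance gives about 1 in 20. GEX1 stood at 341 CPM in wild-type library 5, where the other 4 wild-type libraries lay at 372 to 382. GEX1 stood at 315 CPM in acd15 library 3, where the other 4 lay at 359 to 368. DMP8 stood at 4.04 CPM in sln library 5, the library with the lowest marker sums, where the other 4 lay at 2.69 to 3.04.

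HAP2 in acd21 lay on opposite sides of wild-type in the batches. Both acd21 libraries of batch 1 (27.3 and 28.0 CPM) were narrowly above both wild-type ones (26.8 and 27.2 CPM). The log2 change there, 0.030 ± 0.088 (SE), was smaller than its SE. All 3 acd21 libraries of batch 2 were below all 3 wild-type ones (log2 change -0.28 ± 0.08). The difference between the batches was not tested for this mutant alone. The test of all genotypes by batch did not call HAP2 (edgeR, unadjusted p = 0.096, adjusted p = 0.99).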

How the results depend on the processing

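Counts below are of the 6 genes called by edgeR at an adjusted p under 0.05. Without the batch term 0 were called in mbd5 mbd6, 0 in sln, 0 in acd15 acd21, 1 in the triple mutant (TET12), 1 over all 7 genotypes and 2 over the pairs of mutants. Batch 1 alone, with 2 libraries per genotype, gave 0 in sln, 0 in acd15 acd21, 0 in the triple mutant, 0 over all genotypes and 0 over the pairs. Batch 2 alone gave 0 in mbd5 mbd6, 1 in sln (DMP9), 1 in acd21 (HAP2), 0 in acd15 acd21, 0 in the triple mutant and 3 over the pairs. Fitting only the 2 genotypes compared gave 1 in sln (DMP9) and 0 in acd15 acd21 sln. A term for the no-feature percentage, added after seeing the data, gave 0 in the triple mutant acd15 acd21 sln. Leaving out each library in turn gave 1 to 2 in mbd5 mbd6, 1 to 3 in sln, 0 to 3 in acd15 acd21 sln, 2 to 4 over all genotypes and 5 to 8 over the pairs. The fewer samples in a fit are part of its construction; for the other settings the cause was not tested.

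DESeq2 called 35 of 36 values of a gene in a mutant as edgeR did and lost TET11 in acd15 acd21 sln (adjusted p = 0.061), and without the low-count filter HAP2 was lost there (0.127). DESeq2 size factors, a stricter filter and legacy dispersions (added after seeing the data) changed none of these 36. Beyond them, calls between mutants were lost for DMP9 in acd15 acd21 against acd15 (stricter filter 0.0522, no filter 0.290, compared genotypes alone 0.128, no-feature term 0.0602). TET11 in the triple mutant against acd15 was lost too (DESeq2 size factors 0.0505, compared genotypes alone 0.0572, no-feature term 0.0753), and DESeq2 gave it no adjusted p. The no-feature term also ended the call of TET12 over all genotypes (0.0577). No called value changed direction under any of these settings.

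The replicate number as a block in place of batch called 1 gene in mbd5 mbd6, 2 in sln, 1 in acd15 acd21 and 3 in the triple mutant, changing none of the 36. The labels do not say that a number marks shared material, so the numbers were not taken as pairs. Over 105 pairs of same-numbered libraries the median r of their deviations was 0.019 (-0.49 to 0.50), 28 pairs were over 0.1, and in sln and acd15 acd21 alone were all 5 numbers over it (0.112 to 0.129). Of 35 libraries 22 correlated best with their own number. In batch 1 libraries 1 and 2 of a genotype deviate by equal and opposite amounts, so their r repeat and are not separate values. The number to be met without pairing was not computed, so nothing on pairing is drawn from these values.

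Depth limits DMP8 most, at 17 to 112 counts per library. The labels tie replicates 1 and 2, and 3 to 5, to the batches.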
